A study of Mus musculus with 9 samples.

Results

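The comparison described here sets 4 small RNA libraries of mouse embryos whose genotype lacks the miR-17 family of the miR-17~92 cluster against 4 libraries in which that family is intact. Members were chosen by genotype label, with earlier results of these data known, and 8 of the 9 libraries of the series have a genotype. The ninth, made of reads that could not be placed, was left out. All embryos were taken at embryonic day 9.5 and labelled female, and the RNA came from the embryo without its heart and tail bud. The miR-17 deleted libraries were Delta-17 (miR-17 family deleted), Delta-17,18 (miR-17 and miR-18 families deleted), 19-only (miR-17, miR-18 and miR-92 families deleted) and Full-KO (the whole cluster deleted). The miR-17 intact libraries were Wild-type (the full cluster), Delta-18, Delta-19 and Delta-92, the last 3 each named for the 1 family deleted.

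Each library is a different genotype, with 1 library a genotype. The 4 libraries of a group are therefore not replicates of a genotype, and a p-value below measures a group difference against the spread between genotypes. The other deletions are not spread evenly over the groups: miR-18 was deleted in 3 of the 4 miR-17 deleted libraries and in 1 of the 4 intact ones, miR-92 in 2 and 1, and miR-19 in 1 and 1. The labels state neither the number of embryos in a library nor the strain.

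The miR-17~92 cluster is a single primary transcript from which 6 hairpins are cut, and the mature products fall into 4 families by their seed, the bases 2 to 8 from the 5′ end that pair with target messages. A guide strand is the arm of a hairpin that is loaded into an Argonaute protein, and the other arm, the passenger, is mostly discarded. Mammals carry a pair of paralogous clusters, miR-106a-363 on the X chromosome and miR-106b-25 in an intron region of Mcm7, whose members share seeds with miR-17~92. The cluster is known as an oncogene in B-cell lymphoma and is needed for normal lung, heart, skeletal and B-cell development.

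The genotype label was read through 6 guides that share the seed AAAGUGC. They are shown because the deletion removes the first 2, from miR-17~92, and leaves the other 4, from the paralogous clusters, in place. The sequences are those of RefSeq, whose table carries the build GRCm38.p6, and the seed is in capitals.
miR-17-5p: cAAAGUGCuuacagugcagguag
miR-20a-5p: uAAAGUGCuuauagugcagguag
miR-93-5p: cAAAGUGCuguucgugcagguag
miR-106b-5p: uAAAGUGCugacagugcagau
miR-106a-5p: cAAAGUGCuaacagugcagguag
miR-20b-5p: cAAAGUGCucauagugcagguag

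On GRCm38.p6, Mir17 lies at chr14:115043671-115043754 and Mir20a at chr14:115044157-115044263, both on the plus strand in exons of the non-coding host gene Mir17hg. Mir93, at chr5:138165523-138165610, and Mir106b, at chr5:138165737-138165818, lie on the minus strand within Mcm7, the first overlapping an annotated exon and the second an intron. Mir20b, at chrX:52742113-52742192, and Mir106a, at chrX:52742503-52742567, are on the minus strand of the X chromosome.

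Values are levels in normalised reads on an RPM-like scale (nRPM): the deposited signal, brought by 1 constant to a mean library total of 1000000. The libraries held 6564461 to 18481223 miRNA reads, so that 3 reads stood for 0.187 to 0.470 nRPM. A miRNA row was tested when it averaged 10 nRPM or more over the 8 libraries, which 551 of 986 rows did, 12 of them arms of miR-17~92.

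The arms removed by the deletion fell in all 4 deleted libraries. The level of miR-17-5p was 10.1 nRPM in Delta-17, 180.0 in Delta-17,18, 8.87 in 19-only and 10.1 in Full-KO, against 17331 in Wild-type, 36341 in Delta-18, 21450 in Delta-19 and 53720 in Delta-92. That of miR-20a-5p was 21.2, 187 and 8.66 nRPM in Delta-17, Delta-17,18 and 19-only and 20.99 in Full-KO, against 13908 to 31072 in the intact libraries. In Delta-17,18 both guides therefore lay above the other 3 deleted libraries, and far below the lowest intact one. The passenger miR-17-3p was at 0.105 to 2.40 nRPM where deleted and at 1940 to 2673 where intact. No read of the passenger miR-20a-3p was found in any deleted library, against 1453 to 2757 reads in the intact ones. At the 3 reads that a count of 0 allows in each library, miR-20a-3p was at least 800-fold lower on the means. Reads of miR-17-5p or miR-20a-5p can be shared with guides of the same seed that differ at few bases, and the labels do not say how such reads were assigned.

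Across all 551 rows, limma with Benjamini-Hochberg adjustment called those 4 arms and no other miRNA. The log2 differences, deleted minus intact, were -10.40 ± 0.88 (SE) for miR-17-5p, with a limma adjusted p of 7.04e-05, and -9.30 ± 0.78 for miR-20a-5p, with the same adjusted p. They were -10.14 ± 0.34 for miR-17-3p (limma adjusted p = 5.15e-08) and -7.72 ± 0.31 for miR-20a-3p (limma adjusted p = 1.24e-07). Both passengers averaged under 10 nRPM where deleted and were tested only because of the intact group, so they had to be lower. The fitted value of miR-20a-3p depends on the pseudocount and is no bound on its fold change. The 4 lower calls are 0.726% of the rows tested, and the 0 higher calls are 0%. Of the rows outside the cluster none was called by limma, edgeR's quasi-likelihood test or DESeq2's Wald test. At an unadjusted p under 0.05 there were 24 of these rows with limma (4.45%), 26 with edgeR and 37 with DESeq2.

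**Figure D1:**
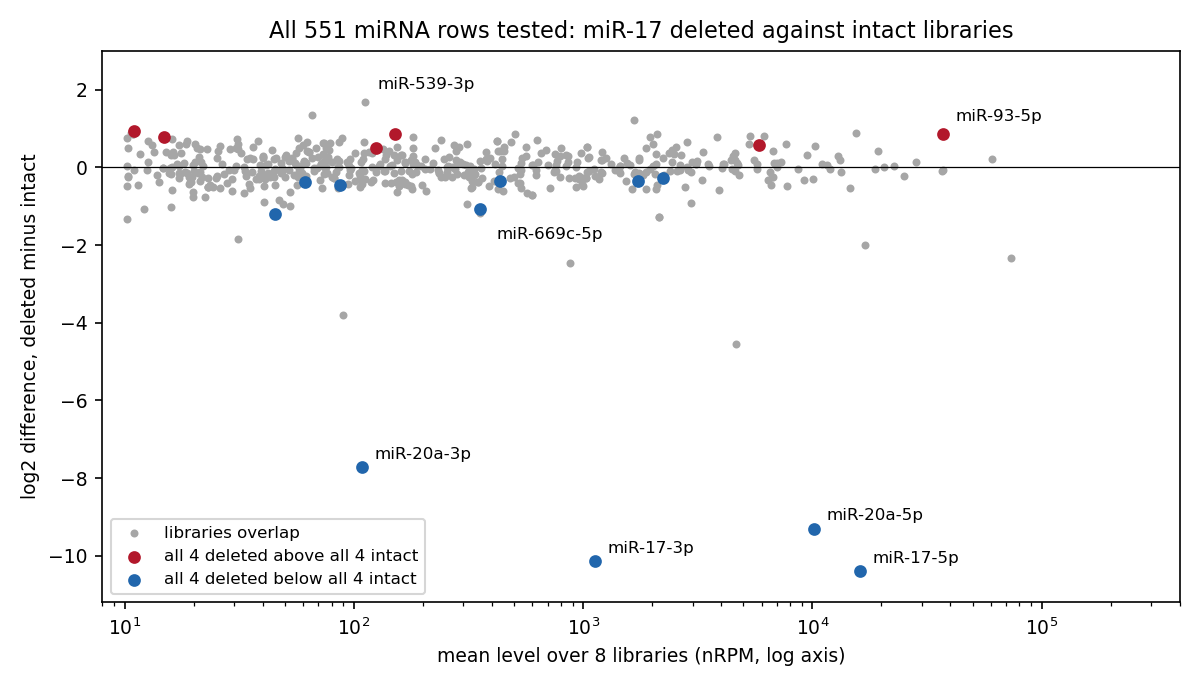
Each point is 1 of the 551 miRNA rows tested, with its mean level over 8 libraries on the x axis (nRPM, log axis) and its fitted log2 difference, miR-17 deleted minus intact, on the y axis. Red and blue points are rows whose 4 deleted libraries all lie above or below the 4 intact ones. The 4 arms removed by the deletion lie between -10.40 and -7.72, and the other rows in colour lie between -1.21 and 0.94.

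A row whose 4 deleted libraries all lay above or all lay below the 4 intact ones is called separated. In all, 6 rows (1.09% of those tested) were separated with the deleted libraries higher and 11 (2%) with them lower, of which 4 were the deleted arms. Outside the cluster the counts were 6 higher (1.11%) and 7 lower (1.30%), together 13 rows. No limma call was made among the 13. A separated row has a two-sided exact permutation p of 0.0286, the smallest that 4 libraries against 4 can give.

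Of the 13 miRNAs, miR-676-3p and miR-676-5p are arms of 1 hairpin, and miR-493-3p, miR-1188-5p and miR-544-3p lie in 1 domain of chromosome 12. RefSeq sequences were matched for 10 of them, and these held 10 different seeds. Besides miR-93-5p, printed above, they were the following, shown with the seed in capitals so that the lack of a common seed can be seen.
miR-335-5p: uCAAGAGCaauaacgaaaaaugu
miR-493-3p: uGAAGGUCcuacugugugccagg
miR-1188-5p: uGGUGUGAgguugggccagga
miR-544-3p: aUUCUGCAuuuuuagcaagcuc
miR-1929-5p: uUCUAGGAcuuuauagagcagag
miR-652-3p: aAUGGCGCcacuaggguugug
miR-676-3p: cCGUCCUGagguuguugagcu
miR-200a-5p: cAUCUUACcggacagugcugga
miR-3963: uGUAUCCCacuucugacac

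**Figure D2:**
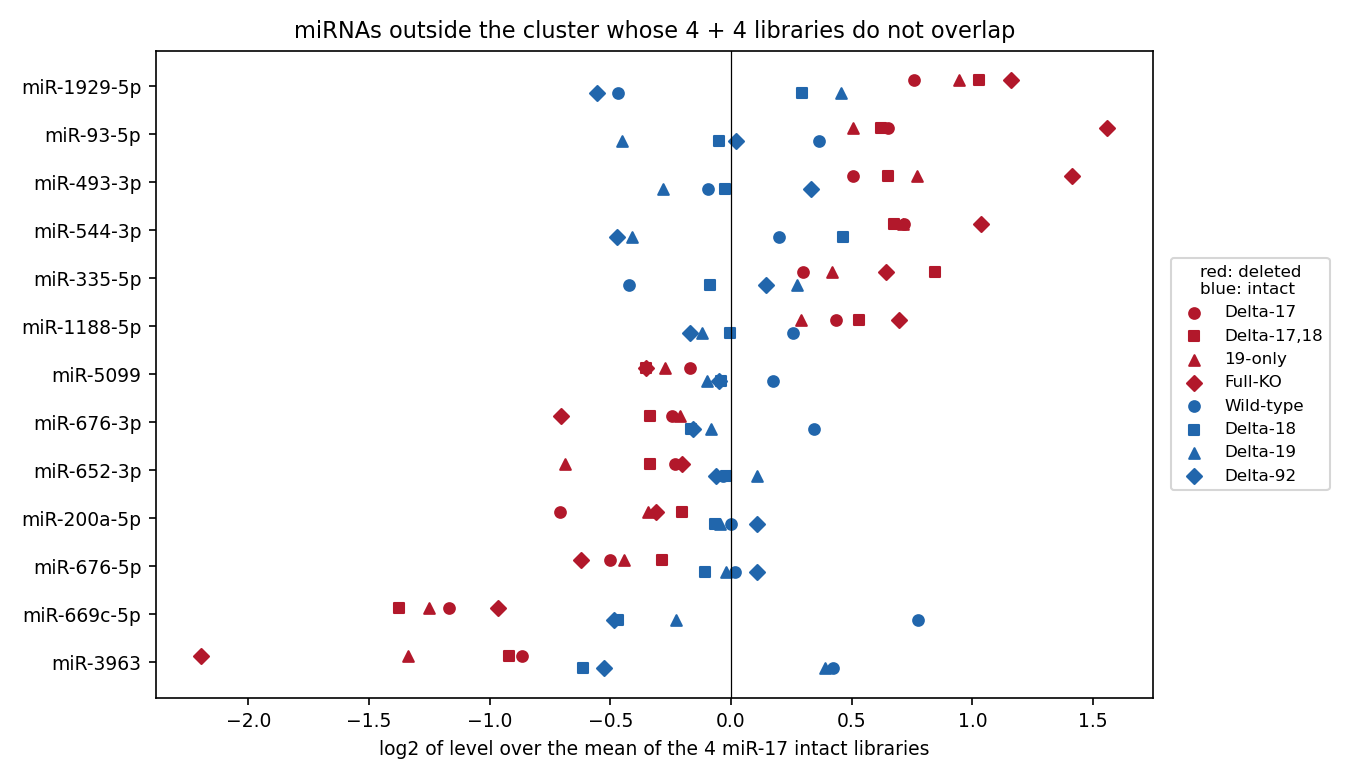
Levels of the 13 separated miRNAs outside the cluster, drawn for each library as the log2 of its level over the mean of the 4 miR-17 intact libraries. Red symbols are the 4 miR-17 deleted libraries and blue symbols the 4 intact ones. Full-KO is the highest library for 5 of the 6 miRNAs at the top, and Wild-type is the highest for 4 of the 7 at the bottom.

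Among the miRNAs that were higher, miR-93-5p was by far the most abundant and the one that carries the miR-17 seed. Its level was 40605 nRPM in Delta-17, 39823 in Delta-17,18, 36702 in 19-only and 76211 in Full-KO. In the intact libraries it was 33348 in Wild-type, 24978 in Delta-18, 18904 in Delta-19 and 26257 in Delta-92. The lowest deleted library, 19-only, was thus close above Wild-type, and Full-KO stood apart from the other 3. The means were 48335 ± 18660 and 25872 ± 5927 nRPM (SD, n = 4 each), and the log2 difference was 0.86 ± 0.27 (SE) with a limma adjusted p of 0.676. The miR-93-3p arm of the same hairpin overlapped between the groups, at 103.1 to 198.8 nRPM against 185 to 249, with a fitted difference of -0.47. The 3 other arms tested within 10 kb, miR-106b-5p, miR-106b-3p and miR-25-3p, overlapped too.

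Next in abundance was miR-335-5p, from an intron of the paternally expressed gene Mest (chr6:30741299-30741396, plus strand). It was at 5779 nRPM in Delta-17, 8433 in Delta-17,18, 6286 in 19-only and 7346 in Full-KO, against 3506 in Wild-type, 4425 in Delta-18, 5675 in Delta-19 and 5197 in Delta-92. The groups came nearest at Delta-17 and Delta-19, with Delta-17 just above Delta-19. The log2 difference was 0.57 ± 0.22 (SE), with a limma adjusted p of 0.852. The other arm, miR-335-3p, overlapped at 4543 to 12334 nRPM against 8191 to 16980, with a fitted difference of -0.31.

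The remaining 4 were at lower levels, and 3 of them lie on chromosome 12 in the imprinted Dlk1-Dio3 domain, whose miRNAs are expressed from the maternal chromosome. The level of miR-493-3p (Mir493, chr12:109580233-109580315, plus strand) was 151 nRPM in Delta-17, 167 in Delta-17,18, 182.1 in 19-only and 284 in Full-KO, against 99.8, 105, 87.6 and 134.2 in Wild-type, Delta-18, Delta-19 and Delta-92. Its log2 difference was 0.85 ± 0.26 (SE; limma adjusted p = 0.676), and Full-KO was again the highest library. The 9 other arms tested within 10 kb of Mir493 all had a higher mean where miR-17 was deleted, with a median difference of 0.29, and none of the 9 was separated. The miR-337 and miR-3544 hairpins among them overlap on opposite strands, so without stated strand-specific counting their reads may be shared. Its own other arm, miR-493-5p, had a fitted difference of -0.51, with overlapping groups.

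The level of miR-1188-5p, from an intron of the non-coding gene Rian (chr12:109611822-109611941, plus strand), was 140, 150, 126.6 and 168 nRPM in Delta-17, Delta-17,18, 19-only and Full-KO, and 123.6, 103.3, 95.2 and 92.0 in Wild-type, Delta-18, Delta-19 and Delta-92. That of miR-544-3p (mature sequence at chr12:109729371-109729392, plus strand) was 17.9, 17.4, 17.9 and 22.4 nRPM in the deleted libraries in the same order, and 12.5, 15.04, 8.20 and 7.87 in the intact ones. For both, the nearest libraries of the groups could not be told apart at this depth: 95% Poisson intervals of their reads, which cover counting error only, overlapped. Log2 differences were 0.49 ± 0.21 and 0.78 ± 0.30 (SE), each with a limma adjusted p of 0.852.

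The least abundant was miR-1929-5p, from an intron of the autophagy gene Atg5 (chr10:44359676-44359768, plus strand). It was at 12.4 nRPM in Delta-17, the lowest deleted library, 14.2 in 19-only and 16.5 in Full-KO, the highest, with Delta-17,18 between these, and at 5.33, 9.05, 10.1 and 5.01 in Wild-type, Delta-18, Delta-19 and Delta-92. Its intact mean of 7.37 nRPM was under the minimum of 10, so the row was tested only because of the deleted group and had to be higher there. Its libraries held few reads, 34 in the lowest, and the nearest libraries of the groups overlapped within counting error.

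Of the miRNAs that were lower, miR-669c-5p had the widest gap. Its level was 218.7 nRPM in Delta-17, 189 in Delta-17,18, 206.2 in 19-only and 251 in Full-KO, against 840 in Wild-type, 355 in Delta-18, 419 in Delta-19 and 350.6 in Delta-92. The deleted libraries were close to each other and Wild-type stood apart above the other 3 intact libraries. The means were 216 ± 26.3 and 491 ± 235 nRPM (SD, n = 4 each), with a log2 difference of -1.08 ± 0.30 (SE) and a limma adjusted p of 0.557, the lowest outside the cluster and shared with miR-539-3p. It belongs to the rodent repeat-like miRNA genes of an intron of Sfmbt2, whose copies resemble each other closely, so that its reads may be shared with near-identical copies.

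The miRNA miR-676, from an intron of the ectodysplasin gene Eda (chrX:100381097-100381185, plus strand), was separated at both arms. The level of miR-676-3p was 412.1, 387, 422 and 300 nRPM in Delta-17, Delta-17,18, 19-only and Full-KO, against 619, 435, 461 and 438 in Wild-type, Delta-18, Delta-19 and Delta-92. That of miR-676-5p was 71.2, 82.6, 74.2 and 65.5 nRPM in the deleted libraries, against 102, 93.4, 99.4 and 108 in the intact ones. For each arm the nearest libraries of the groups overlapped within counting error, and Full-KO was the lowest of the 8 libraries. The deleted means were 77.9% and 72.8% of the intact ones, and the log2 differences were -0.36 ± 0.22 and -0.46 ± 0.20 (SE; limma adjusted p = 0.852 for each).

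A further X-linked miRNA, miR-652-3p, lies in an intron of Tmem164 (chrX:142739000-142739097, plus strand). It was at 1650 nRPM in Delta-17, 1536 in Delta-17,18, 1203 in 19-only and 1683 in Full-KO, against 1896, 1909, 2089 and 1855 in Wild-type, Delta-18, Delta-19 and Delta-92. The deleted mean was 78.4% of the intact mean, and the 4 intact libraries were within a narrow range. Its log2 difference was -0.36 ± 0.20 (SE), with a limma adjusted p of 0.852.

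The remaining 3 lower miRNAs were miR-5099, miR-200a-5p and miR-3963. For miR-5099 the levels were 1925 to 2188 nRPM where deleted and 2299 to 2774 where intact, a deleted mean of 82.1% of the intact one. For miR-3963 (chr3:151023792-151023862, minus strand) they were 34.8, 33.6, 25.1 and 13.9 nRPM in Delta-17, Delta-17,18, 19-only and Full-KO, against 85.0, 41.4, 83.2 and 44.1 in Wild-type, Delta-18, Delta-19 and Delta-92. The deleted mean of miR-3963 was 42.3% of the intact one, which makes it and miR-669c-5p the only ones of the 13 with means 2-fold or more apart.

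The arm miR-200a-5p, from an intron of Ttll10 (chr4:156054896-156054985, minus strand), belongs to a family that keeps epithelial cells in their state. Its level was 42.5 to 60.3 nRPM where deleted and 66.4 to 74.8 where intact. Its partner miR-200a-3p, the more abundant arm, leaned the other way, at 1498 to 3316 nRPM against 1028 to 1918, with overlapping groups and a fitted difference of 0.79. In this way the arms of 1 hairpin had fitted differences of opposite sign for miR-93, miR-335, miR-493 and miR-200a, and of the same sign for miR-676.

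Part of the 13 depended on how the libraries were scaled. Under 4 other scalings, miR-93-5p, miR-493-3p, miR-544-3p, miR-1188-5p, miR-1929-5p and miR-669c-5p stayed separated in 4 of 4. With plain library totals, which moved the median log2 difference of all rows by 0.13, the groups overlapped for miR-652-3p, miR-676-5p, miR-676-3p, miR-200a-5p, miR-3963 and miR-5099, which is 6 of the 7 lower miRNAs. With TMM factors miR-676-3p and miR-5099 overlapped, and with totals outside the cluster miR-335-5p did. With a term for each of the 4 families, the miR-17 term kept the sign of all 13, between 64.7% and 126.5% of the fitted difference, and the limma adjusted p was 0.996 for each. The 13 were selected on these same values, so the kept sign is no independent check. The part of the other deleted families was not settled by it. Over all tools and settings the adjusted p of the 13 ran from 0.0575, for miR-669c-5p with DESeq2, to 0.996.

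The pool of guides with the miR-17 seed was then summed by library. The 4 guides from the paralogous clusters together were at 68529 nRPM in Delta-17, 103841 in Delta-17,18, 71814 in 19-only and 133620 in Full-KO, against 58762 in Wild-type, 62056 in Delta-18, 58663 in Delta-19 and 69989 in Delta-92. The groups overlapped by 1 pair of libraries, Delta-92 being just above Delta-17. The means were 94451 ± 30587 and 62368 ± 5320 nRPM (SD, n = 4 each), 151% of the intact level, with a two-sided exact permutation p of 0.0571 and 0.0857 after Benjamini-Hochberg adjustment over 3 sums. Of the 3 sums, 1 is the deleted family itself, whose p was fixed by the deletion and eases the adjustment of the others.

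Of these 4 guides only miR-93-5p was separated. The level of miR-20b-5p was 7877, 8433, 7136 and 13689 nRPM in Delta-17, Delta-17,18, 19-only and Full-KO, against 5979, 4619, 8200 and 5617 in Wild-type, Delta-18, Delta-19 and Delta-92, so that Delta-19 lay within the deleted range. That of miR-106a-5p was 3288 to 9420 nRPM against 2612 to 6000, and that of miR-106b-5p was 16758 to 48008 against 16824 to 32116. Both overlapped broadly, miR-106b-5p being lowest in Delta-17 of all 8 libraries. Log2 differences were 0.59 ± 0.27 (SE) for miR-20b-5p, 0.59 ± 0.37 for miR-106a-5p and 0.14 ± 0.34 for miR-106b-5p, and the limma adjusted p was 0.852 or above for each.

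With miR-17-5p and miR-20a-5p included, the whole pool was 68560, 104208, 71831 and 133651 nRPM in Delta-17, Delta-17,18, 19-only and Full-KO, and 107165, 119505, 94020 and 138988 in Wild-type, Delta-18, Delta-19 and Delta-92. The deleted mean was 82.3% of the intact mean, with a two-sided exact permutation p of 0.257. Delta-17 and 19-only were the lowest of the 8, whereas Delta-17,18 and Full-KO lay within the range of the intact libraries. The sum of the deleted family itself, all 4 arms, was 18.7 to 369.3 nRPM where deleted and 38320 to 71157 where intact (two-sided exact permutation p = 0.0286, 0.0857 after adjustment over the 3 sums). That p was fixed in advance by the deletion, and the sum only checks the labels.

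**Figure D3:**
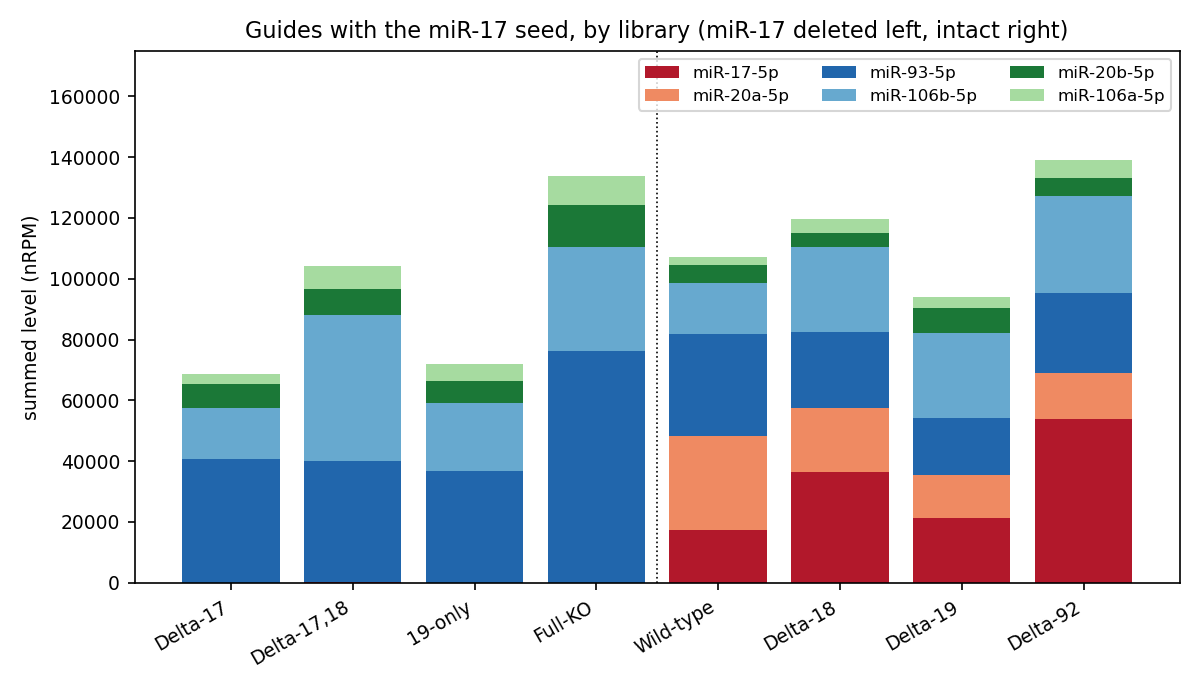
Bars are the summed levels, in nRPM from 0, of the 6 guides with the miR-17 seed in each library, the 4 miR-17 deleted libraries left of the dotted line and the 4 intact ones right of it. Red and orange parts are miR-17-5p and miR-20a-5p, blue parts the guides of miR-106b-25 and green parts those of miR-106a-363. The blue and green parts reach 133620 nRPM in Full-KO and at most 69989 nRPM in an intact library.

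Summed over the arms listed for them, both paralogous clusters had non-overlapping groups. The guides miR-19b-3p and miR-92a-3p, which hairpins of miR-17~92 and of miR-106a-363 both yield, were left out. The lower of 2 deposited rows of miR-92a-3p leaned the other way, at 19243, 10970, 8491 and 9800 nRPM in Delta-17, Delta-17,18, 19-only and Full-KO. It was at 22952, 13797, 17234 and 14308 nRPM in Wild-type, Delta-18, Delta-19 and Delta-92. The sum for miR-106a-363 is therefore not that of all its products. The 10 arms of miR-106a-363 that were tested reached 26973, 23481, 22886 and 42001 nRPM in Delta-17, Delta-17,18, 19-only and Full-KO, against 21429, 17475, 22407 and 19827 in Wild-type, Delta-18, Delta-19 and Delta-92. The 5 arms of miR-106b-25 reached 112805, 121789, 98319 and 137202 nRPM against 95170, 97175, 84180 and 89927 in the same order. In both clusters the gap between the groups was small, 19-only being the lowest deleted library, and Full-KO was the highest. These sums were not tested, and with miR-17~92 aside they were 2 of 19 lists whose summed level was higher without overlap. With plain totals and with totals outside the cluster the groups of miR-106a-363 overlapped, and with TMM or median-ratio factors those of miR-106b-25 did.

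Arms of miR-17~92 outside the miR-17 family can be compared only in the libraries that keep them. The passenger miR-19a-5p was at 16.97, 10.6 and 8.66 nRPM in Delta-17, Delta-17,18 and 19-only, against 56.4, 99.7 and 57.8 in Wild-type, Delta-18 and Delta-92. These 3 against 3 libraries did not overlap, whereas its guide miR-19a-3p did, at 3157 to 16804 nRPM against 9621 to 83047. The guide miR-19b-3p, which the paralogous hairpin miR-19b-2 also yields, was at 25168 to 147990 nRPM against 26894 to 155570 and did not separate. It was still read at 2852 nRPM in Full-KO and 1541 in Delta-19. miR-92a-3p overlapped too, at 116099 and 60314 nRPM in Delta-17 and Delta-17,18 against 199542, 68470 and 139080 in Wild-type, Delta-18 and Delta-19. These are the higher of 2 deposited rows of that name, and taking it as the row of miR-17~92 is an assumption, since the labels do not tie the rows to loci. The lower row was at 19243 and 10970 nRPM in Delta-17 and Delta-17,18 against 22952, 13797 and 17234 in those intact libraries, and overlapped too. miR-18a-5p was kept by 1 deleted library alone, Delta-17, at 3446 nRPM against 10099 in Wild-type, 12792 in Delta-19 and 10579 in Delta-92.

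A pair of library pairs differ by label in the miR-17 family alone: Delta-17 against Wild-type, and Delta-17,18 against Delta-18. There is 1 library on each side and no test. Of 320 rows outside the cluster averaging 100 nRPM or more, 9 (2.81%) were 2-fold or more higher in Delta-17 than in Wild-type and 13 (4.06%) were 2-fold or more lower. In Delta-17,18 against Delta-18 the numbers were 21 (6.56%) and 33 (10.3%). Just 1 row was higher in both pairs (0.312%) and 1 was lower in both (0.312%), which is 11.1% of the 9 and 4.76% of the 21, and 7.69% of the 13 and 3.03% of the 33.

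The miRNA higher in both was miR-539-3p, a Dlk1-Dio3 product, at 3.27-fold and 4.53-fold. Its level was 105 nRPM in Delta-17, 255 in Delta-17,18, 149 in 19-only and 152 in Full-KO, against 31.3 in Wild-type, 55.5 in Delta-18, 25.1 in Delta-19 and 120 in Delta-92. It did not separate, because Delta-92 lay above Delta-17. Its log2 difference of 1.69 ± 0.48 (SE) was the highest of the 551 rows (limma adjusted p = 0.557), and without Delta-92 it was 2.12 with a limma adjusted p of 0.0422, the only call outside the cluster in any setting tried. Over those settings its adjusted p ran up to 0.996, with a term for each family. The miRNA lower in both was miR-181c-3p, at 0.166 and 0.495 of the paired library. Over all 8 libraries it overlapped widely, at 30.7 to 330 nRPM where deleted and 127.5 to 328 where intact.

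Among the separated miRNAs, the ratio of miR-93-5p was 1.22 in Delta-17 over Wild-type and 1.59 in Delta-17,18 over Delta-18, that of miR-335-5p was 1.65 and 1.91, and that of miR-493-3p was 1.51 and 1.59. For miR-669c-5p the ratios were 0.261 and 0.535, the first against the library with its highest level. A separated row has every deleted library on 1 side of every intact one. The direction of both ratios was therefore fixed by the selection and is no further evidence. The 2 rows that went past 2-fold in opposite directions were miR-9-5p, a neural miRNA, at 2.04 and 0.453, and miR-21-3p, the passenger of a growth-linked miRNA, at 2.09 and 0.431.

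**Figure D4:**
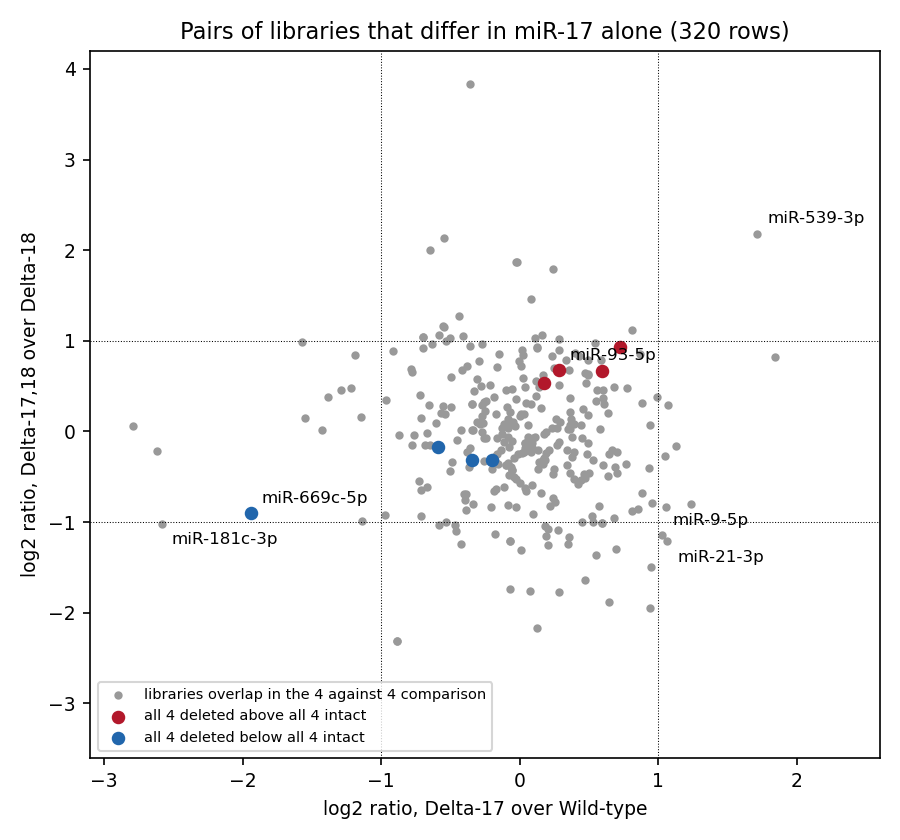
Each of 320 miRNA rows outside the cluster averaging 100 nRPM or more is placed by its log2 ratio in Delta-17 over Wild-type (x axis) and in Delta-17,18 over Delta-18 (y axis), with dotted lines at 2-fold. Red and blue points are rows separated in the comparison of 4 against 4 libraries. Only miR-539-3p lies in the upper right corner and only miR-181c-3p in the lower left one.

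Lists of miRNAs by locus or family were read against all 551 rows, whose median log2 difference was 0.01 with 279 rows higher and 272 lower on the fitted means. The list of miR-297, miR-466, miR-467 and miR-669 members, called the Sfmbt2 type, leaned most: 17 of its 19 tested rows had lower fitted means where miR-17 was deleted, with a median of -0.40, and none was called. Several of these rows hold the same values. With each set of equal rows counted once, the 16 distinct rows summed to 862, 737, 866 and 964 nRPM in Delta-17, Delta-17,18, 19-only and Full-KO, against 1490, 1177, 1283 and 1133 in Wild-type, Delta-18, Delta-19 and Delta-92. The sums did not overlap under the deposited scaling or any of 4 others. Without miR-669c-5p, the only separated member, they did overlap, at 548 to 713 nRPM against 649 to 864, and 13 of the 15 rows still had lower fitted means.

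In the Dlk1-Dio3 list, 2 of 88 tested rows were separated higher, miR-493-3p and miR-544-3p, and none lower. Its median was 0.04, with 48 rows higher and 40 lower, and its most abundant members, miR-541-5p and miR-127-3p, had differences of -0.00 and 0.03. miR-1188-5p lies in the same domain but its name was not on the list. Of 9 let-7 rows, which mark differentiating tissue, 8 had lower fitted means with a median of -0.16. let-7a-5p overlapped at 527 to 1149 nRPM against 843 to 1047. That count fell to 6 of 9 with plain totals.

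The other lists had no separated row, apart from miR-200a-5p among the epithelial markers. Of the stem-cell miRNAs of the miR-302 and miR-290 clusters, 9 of 20 were higher, with a median of -0.12. The Hox-cluster miRNAs miR-10 and miR-196, expressed along the trunk, had a median of 0.22 over 8 rows, although the most abundant ones, miR-10b-5p and miR-10a-5p, had differences of -0.07 and -0.22. Their summed level was 56352 to 65407 nRPM where deleted and 62189 to 78635 where intact, and with totals outside the cluster these sums were lower without overlap, at 54555 to 63645 against 64601 to 81601. The X-linked group of miR-322, miR-503, miR-450 and miR-542 had a median of 0.19 over 12 rows, and the list of miR-483, miR-296, miR-298 and miR-675, from other imprinted loci, one of 0.24 over 8. The group of miR-15, miR-16, miR-103 and miR-107, which have related seeds, had a median of 0.03 over 11, although miR-103-3p ranged from 9982 to 30404 nRPM where deleted and 8424 to 12275 where intact. The p53-induced miR-34 group had a median of 0.19 over 4 rows, in which miR-34a-5p was at 113 to 294.3 nRPM against 99.6 to 185. None of these rows was called by limma.

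Markers of cell types the embryo could hold in unequal parts were read in the same way, and in none of these 8 lists did the summed levels of the groups separate. The Sfmbt2 type, which was also chosen as a list of trophoblast-linked markers, is not among the 8. Its summed levels, given above, were lower without overlap where miR-17 was deleted, and overlapped without miR-669c-5p. Blood miRNAs summed to 2139 to 3826 nRPM where deleted and 2759 to 4485 where intact, and muscle and heart miRNAs to 2338 to 6170 against 2842 to 5284. Endothelial miRNAs summed to 7371 to 17558 nRPM against 9863 to 13156, neural ones to 9794 to 12857 against 10061 to 13738, and epithelial ones to 9089 to 13776 against 9936 to 11318. The sensory list summed to 11556 to 15349 nRPM against 13388 to 24427, the liver list to 626 to 1109 against 803 to 1436 and the mesenchymal list to 31039 to 46999 against 35383 to 42593. The heart-specific miR-208a-3p was still read at 24.7 to 176 nRPM in deleted and 6.27 to 51.7 in intact libraries, although the heart had been dissected away. The groups overlapped for this marker, and also for miR-208b-3p and miR-499-5p. For miR-208b-3p the levels were 8.89 to 28.45 nRPM where deleted and 16.03 to 24.59 where intact. For miR-499-5p they were 18.6 to 60.35 nRPM against 10.34 to 52.06. A difference in residual heart tissue was not tested. The myeloid marker miR-223-3p was at 0 to 9.71 nRPM against 2.15 to 5.57. In whole tissue, fewer cells of a type and less RNA per cell cannot be told apart, and the part of cell makeup in the differences above was not tested.

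**Figure D5:**
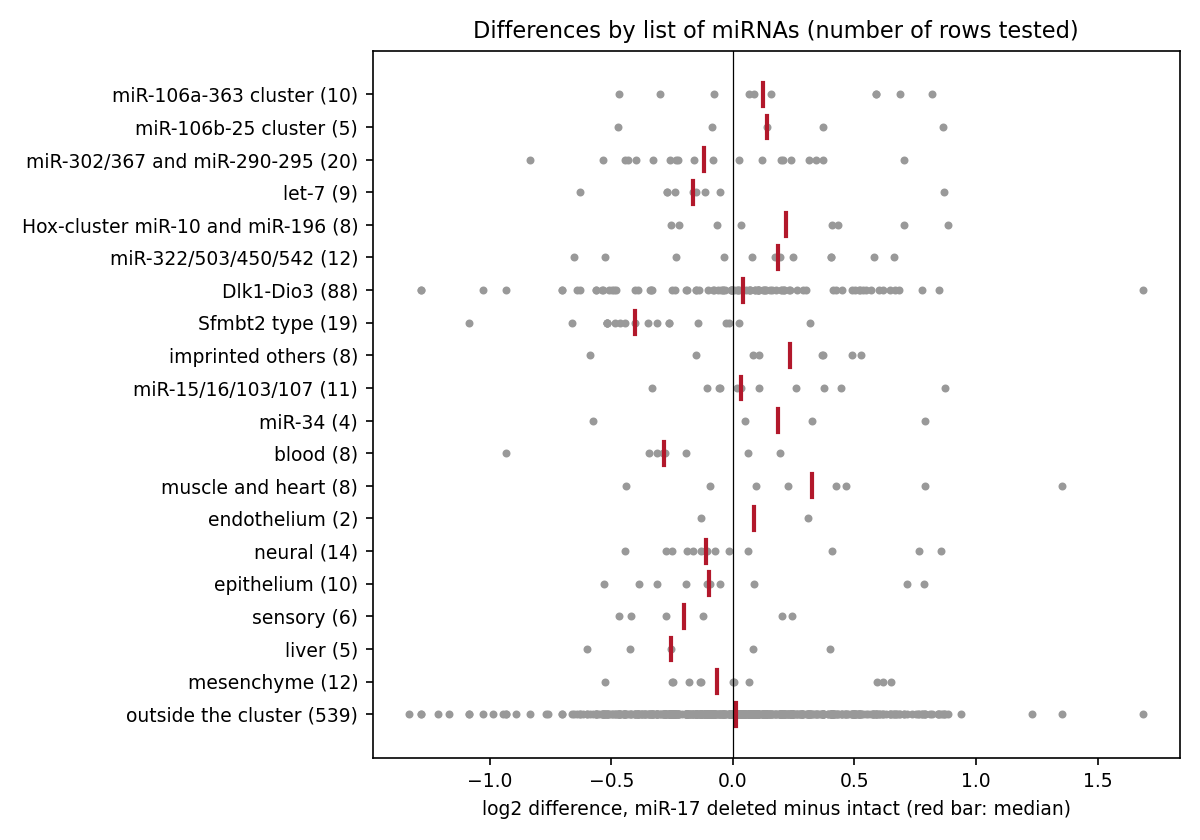
Grey points are the fitted log2 differences, miR-17 deleted minus intact, of the tested rows of each list, with the number of rows in brackets, and red bars are the medians. The bottom line holds all tested rows outside the cluster. The Sfmbt2 type has the lowest median, -0.40, and the muscle and heart markers the highest, 0.32.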

How the data were processed

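Small RNA libraries of mouse embryos were made with a published protocol from Trizol-extracted RNA, per the labels' protocols. Build mm9, featureCounts (Subread 1.4.2), SAMtools 0.1.19 and STAR 2.2.0 are listed in the submitters' processing notes, which say nothing here of reads that map to several places. The deposited values are a signal: reads divided by 1 factor per library. Whole reads were recovered for 100% of values within 0.001 reads. Of 1046 rows, those of 1 accession with totals within 10% were merged, leaving 986 rows, and 19 of the rows tested still share all values with another. Signal was multiplied by 0.116 in every library to give nRPM. limma 3.58.1 was fitted with a trend to log2(nRPM + 1), so that fold changes of low miRNAs are understated, with a threshold of 0.05 on the Benjamini-Hochberg adjusted p. edgeR 4.0.16 and DESeq2 1.42.0 on recovered reads, 4 scalings, other minimum levels, pseudocounts of 0.25 and 5, duplicate rows kept, a term for each family and leaving out each library were alternatives. The fitting was checked on simulated reads, drawn with 1 fixed dispersion for all rows and with the libraries of a group as replicates. This check does not show how often a true change would be called across these different genotypes.

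Sequences were matched by name for 440 of the 551 rows tested, and genes come from GENCODE M21. Named miRNAs were all arms of the 3 paralogous clusters averaging 10 nRPM or more (in full where separated or with the seed), the separated rows with the widest gap (12 in each direction at 100 nRPM or more, then 4 at 10 to 100), up to 10 limma calls and 5 paired rows in each direction, and each list's 2 members of highest level. miR-21-3p and the single markers were named after their values were seen. The members and lists were chosen with earlier results of these data known.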

Additional observations from a re-analysis of the deposited data

Results flagged for a closer look

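Among 40 groups of 4 libraries tested for a single library that stands apart, by the gap to its nearest neighbour over the range on the log2 scale against Dixon's 95% critical value, 4 passed, and chance gives about 1 in 20. Full-KO stood above the other miR-17 deleted libraries for miR-93-5p, at 76211 nRPM, and for miR-544-3p, at 22.4 nRPM. Delta-17,18 stood above the other deleted libraries for miR-17-5p, at 180.0 nRPM. Wild-type stood above the other intact libraries for miR-676-3p, at 619 nRPM.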

How the results depend on the processing

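The 4 limma calls, all lower, were made under every scaling, minimum, pseudocount and tool tried and without any 1 library. The number of higher calls ran from 0 to 1 when a library was left out, the 1 being miR-539-3p without Delta-92. The number of separated rows moved more. With plain totals it was 19 higher and 6 lower, against 6 and 11 with the deposited scaling, and with totals outside miR-17~92 it was 5 higher and 20 lower. With a minimum mean of 1 nRPM, which tests 791 rows, 18 were lower. Leaving out a library, which by construction can only add rows, gave 11 to 22 higher and 14 to 28 lower, most without Delta-17 or Delta-18, and each of the 8 libraries moved the higher count by more than 1.5 times. The log2 difference of the seed guides outside the cluster was 0.57 with TMM factors and 0.56 with median-ratio factors. That of the deleted family was -9.96 and -9.98, and each of these differences had an adjusted two-sided exact permutation p of 0.0429. The p of the deleted family was fixed by the deletion, and its place among the 3 sums eases the adjustment for the guides. With plain totals and with totals outside miR-17~92 the groups of these guides overlapped, as with the deposited scaling. Leaving out a library gave 0.36 to 0.68 for these guides, -10.92 to -9.51 for the deleted family and -0.51 to -0.19 for all 6 guides. Without Delta-17 the first was 0.68, with an adjusted exact permutation p of 0.0429, eased in the same way. For scalings, the cause of these moves was not tested. The labels carry no replicate numbers, so no fit with a block was made, and the pairs matched by genotype have 1 library a side and no test. Counting error bounds 6 of the 13 separated rows outside the cluster, whose nearest libraries overlap within it.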
